A study of Mus musculus with 18 samples.

Results

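A set of 10 genes of synapse formation and engulfment, for which astrocytes are known, was followed through all 18 libraries of the series. The genes were taken by symbol from the 55291 gene symbols of the files, and all 10 of the 10 symbols were found. They comprise the thrombospondins Thbs1, Thbs2, Thbs3 and Thbs4, the matricellular proteins Sparc and Sparcl1, the glypicans Gpc4 and Gpc6, and the engulfment receptors Megf10 and Mertk.

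Astrocytes shape synapses through proteins that they release and through receptors with which they take up synaptic material. Thrombospondins and hevin, the product of Sparcl1, are secreted and promote the formation of excitatory synapses that are structurally complete, SPARC antagonizes hevin, and the glypicans Gpc4 and Gpc6 recruit AMPA receptors to the synapse. Megf10 and Mertk recognize dying cells and unwanted synapses and start their engulfment, and Mertk is also made by microglia.

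The mice were six-week-old male C57BL/6J animals, and all 3 groups carried AAV-DJ with EGFP-Rpl10a, a ribosomal protein tagged with EGFP, under the astrocyte promoter GfaABC1D, injected into the right CA3. The AAV control group had no other injection and gave RNA 2 weeks after the AAV. The KA group received kainic acid, a glutamate receptor agonist used to model mesial temporal lobe epilepsy, in the right dentate gyrus 2 weeks after the AAV and gave RNA 14 days later. The PBS group received PBS after the AAV, at times that the sources used here do not give in numbers. Each group had 3 samples, each a pool of the right hippocampi of 3 to 4 mice, and each sample gave an input library of the homogenate and an IP library of the RNA bound to the EGFP-tagged ribosomes, pulled down with an anti-GFP antibody. KA and AAV control therefore also differed in age and in the number of surgeries, and the tag marks only cells in which the promoter was active, while markers of other cell types were also measured in the IP libraries.

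Library totals lay between 7991681 and 16032180 counts. Run 1 held samples 1 and 2 of KA and AAV control, run 2 their samples 3, and run 3 the whole PBS group, so that group and its run cannot be told apart. Sample 3 of AAV control and sample 3 of KA, the samples of run 2, both stood apart from the other 2 samples of their group. The variance between libraries was 4.48 to 9.59 times the counting noise for samples 1 and 2 of these groups. It was 82.3 to 109 times for pairs with AAV control sample 3 and 39.6 to 76.8 times for pairs with KA sample 3. In PBS, all of run 3, it was 55.6 to 81.2 times in IP and 7.22 to 19.8 times in input. A wide spread thus also occurred within 1 run. Summed FPKM (fragments per kilobase of exon, scaled to the size of the library) of 8 astrocyte markers was 5025 to 8250 in AAV control IP, 5601 to 9782 in PBS IP and 2506 to 2802 in KA IP, and on average 11.2, 10 and 3.09 times the input level in AAV control, PBS and KA. Aldoc made up most of that sum, at a mean of 4162 of 6311 in AAV control IP and 1431 of 2617 in KA IP. Against each control, 1 of the 8 markers was higher in KA IP and 4 were lower. The sum of 5 reactive astrocyte markers was 4557.5 to 4806.3 in KA IP, against 604 to 1252 in both control groups. That sum was on average 16.4, 17.9 and 9.05 times the input level in AAV control, PBS and KA. In KA IP the sum of 6 oligodendrocyte markers was 1279 to 2439 against 247 to 1037 in both control groups, and that of 6 neuronal markers was 182 to 260 against 84.0 to 154. In KA input the sum of 7 microglial markers was 200 to 275 against 34.5 to 58.6 in the control inputs. None of the markers of these lists was at 0 in all 3 libraries of a group. The part of these shifts in the results below was not tested.

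In the control IP libraries Sparcl1 had the highest level per length of the 10 genes, and in KA IP it was Sparc. In AAV control IP mean FPKM (per length, ± SD, n = 3) ran from 1341 ± 75.8 for Sparcl1 and 642 ± 390 for Sparc down to 0.0582 ± 0.0278 for Thbs1. Between these lay Mertk at 13.8, Thbs4 at 8.54, Thbs3 at 6.33, Megf10 at 5.87, Gpc4 at 4.08, Gpc6 at 2 and Thbs2 at 0.600. From Mertk to Gpc4 each neighbour in that order overlapped the next in its 3 libraries, whereas Sparcl1, Sparc, Gpc6, Thbs2 and Thbs1 did not overlap their neighbours. In KA IP the order was Sparc at 2681 ± 165, Sparcl1 at 342 ± 47.1, Gpc4 at 15.3, Thbs3 at 7.94, Thbs4 at 6.61, Megf10 at 4.38, Mertk at 3.31, Gpc6 at 1.88, Thbs1 at 1.70 and Thbs2 at 0.665. Mertk thus stood in place 3 in AAV control IP and in place 7 in KA IP, and Gpc4 the other way round.

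**Figure D1:**
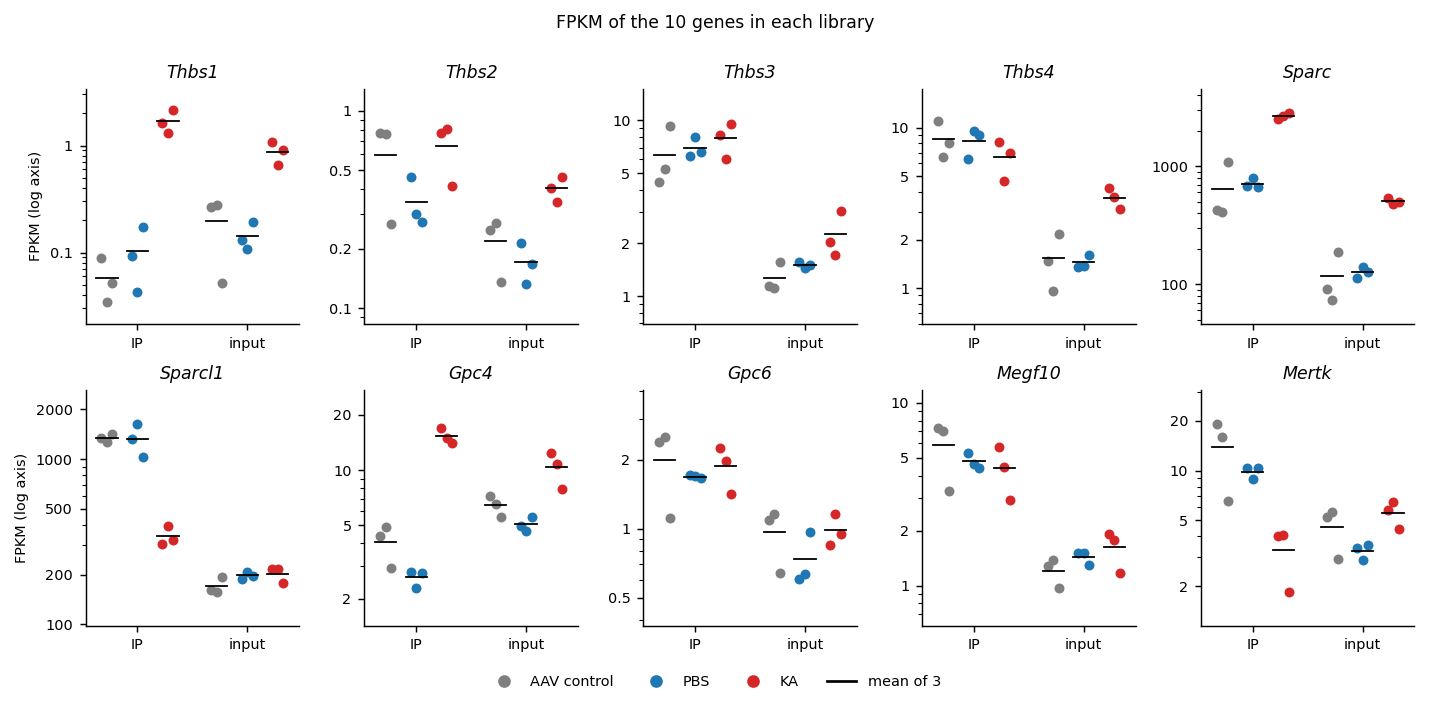
FPKM of each gene (log axis, a separate scale for each gene) in the 3 libraries of each group, IP on the left and input on the right of each panel, with points for libraries and lines for means. KA IP stands above both control groups for Thbs1, Sparc and Gpc4 and below both for Sparcl1 and Mertk, with no overlap of the 3 libraries. The share of all genes that separate in this way was not counted.

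In the IP libraries, KA was compared with AAV control to ask how astrocyte RNA had changed 14 days after kainic acid. Sparc and Gpc4 were higher and Sparcl1 and Mertk were lower, each by about 4-fold. Thbs1 was also higher, in a fit that it could enter only if it was higher in KA. Thbs3, Thbs4, Gpc6, Megf10 and Thbs2 did not pass the test. Of the 8 members with FPKM above 1 in all 6 libraries, 2 were higher and 2 lower at an adjusted p under 0.05 in edgeR's quasi-likelihood test, where 10.4% of the 9729 genes tested were higher and 9.74% lower. Their median log2 fold change was -0.16, and that of all genes tested was -0.02. Thbs1 and Thbs2 lay under that filter and were tested in a wider set chosen by filterByExpr, in which 11% of 15312 genes were higher. These shares move with the libraries used. Without AAV control sample 3, 17.1% of genes were higher and 16.8% lower. Without any 1 of the other libraries, 8.59% to 13.1% passed in either direction, in place of 20.1%. Within run 1, 23.7% were higher and 22.3% lower. The run 1 fits set 2 libraries against 2, from the pairs with the least spread in IP (8.35 and 9.59 times the counting noise).

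The comparison of KA with PBS in IP, which shares the KA libraries with the former, gave Sparc and Gpc4 as higher and Sparcl1 and Mertk as lower again, with Thbs1 higher under the same limit. Of the 8 members that passed the FPKM filter, 2 were higher and 2 lower, beside 18.2% of the 9847 genes tested that were higher and 18.9% that were lower. In the wider set 19.6% of 15819 genes were higher, and Thbs2 was among them. With 3 libraries against 3, an exact permutation test of a single gene cannot give a two-sided p under 0.1, so the calls rest on the fit over all genes. The share of all genes whose libraries did not overlap between groups was not counted, so non-overlap is given throughout as a description only.

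**Figure D2:**
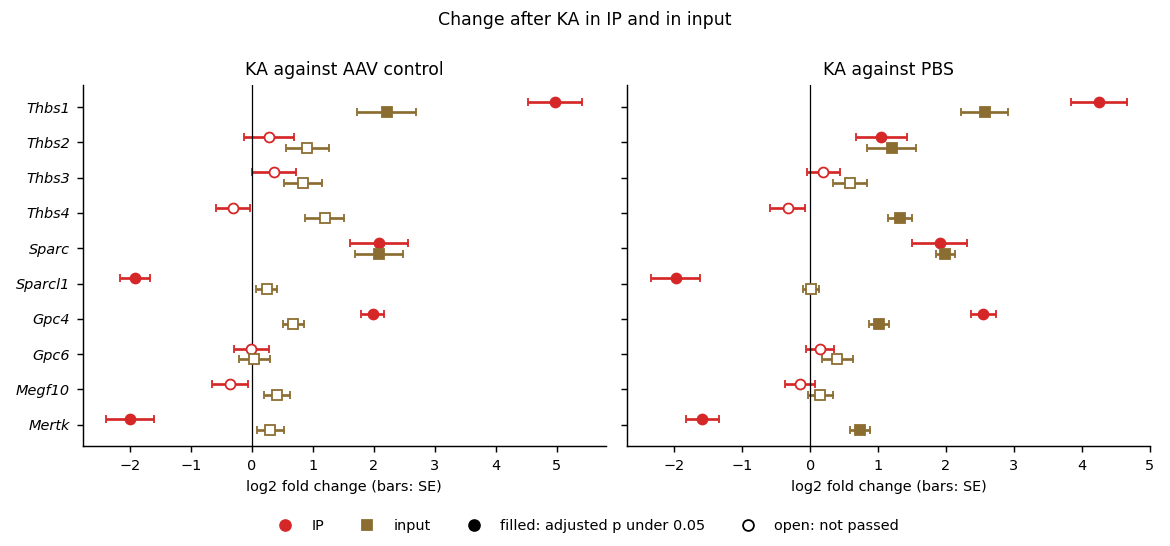
Log2 fold change of each gene in KA against AAV control (left) and against PBS (right), in IP (circles) and in input (squares), with bars of 1 SE and filled symbols for an adjusted p under 0.05. Sparc sits near 2 in IP and in input, while Sparcl1 and Mertk sit near -2 in IP and at 0 or above in input.

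Thbs1 (chr2:118111876-118127133, + strand, GRCm38 as are the positions below), a secreted thrombospondin that binds the calcium channel subunit α2δ-1, was close to absent in control astrocyte RNA. Its FPKM was 0.0888, 0.0344 and 0.0514 in AAV control IP, from 5, 2 and 4 counts, and 0.0925, 0.0432 and 0.173 in PBS IP, from 9, 3 and 11 counts. In KA IP it was 1.64, 1.31 and 2.13, from 111, 83 and 142 counts. All 3 KA libraries were above all 6 control libraries. The ratio of summed counts per total was 29.7 against AAV control (exact 95% interval 16.4 to 60.1) and 17.0 against PBS (11.2 to 27.3), intervals that cover counting error only. The fitted log2 fold change was 4.97 (SE 0.440, adjusted p = 0.000328, edgeR) against AAV control and 4.25 (SE 0.412, adjusted p = 9.42e-06) against PBS. The gene entered both fits through the KA libraries, since 0 AAV control and 1 PBS IP library reached the count minimum, so it could enter only if it was higher in KA. Within run 1 the log2 fold change against AAV control was 4.65.

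Thbs2 (chr17:14665500-14694235, - strand), a close relative of Thbs1 with the same domain plan, stayed under an FPKM of 1 in every library. Its FPKM in KA IP was 0.770, 0.809 and 0.417, overlapping AAV control IP at 0.770, 0.762 and 0.267 and partly above PBS IP at 0.463, 0.300 and 0.272. It did not pass the test against AAV control (log2 0.28, SE 0.404, adjusted p = 0.664). Against PBS it was higher (log2 1.05, SE 0.372, adjusted p = 0.0374), but it lost that call in 4 of the 6 fits that left out a library, namely without KA sample 1 or 2 and without PBS sample 2 or 3, with log2 values of 0.81 to 1.06 and adjusted p of 0.0717 to 0.117.

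Thbs3 (chr3:89215180-89226837, + strand) and Thbs4 (chr13:92751590-92794818, - strand) are the pentameric thrombospondins, and they were the main thrombospondins of the control IP libraries. Thbs3 had an FPKM of 4.43, 5.29 and 9.27 in AAV control IP, 6.29, 8.04 and 6.62 in PBS IP and 8.29, 6.05 and 9.48 in KA IP. The 3 groups overlapped. Its log2 fold change in KA was 0.36 (SE 0.356, adjusted p = 0.517) against AAV control and 0.19 (SE 0.242, adjusted p = 0.568) against PBS. Without AAV control sample 3, its log2 value against AAV control was 0.84 and passed (adjusted p = 0.0355), and within run 1 it was 0.63 (adjusted p = 0.0119). Thbs3 shares 318 exon bases with Mtx1 on the opposite strand, and the library kit does not keep the strand, so reads from that stretch cannot be assigned.

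Thbs4 had an FPKM of 11, 6.61 and 8.07 in AAV control IP, 6.43, 9.61 and 8.98 in PBS IP and 8.14, 4.67 and 7.02 in KA IP. The groups overlapped here too, with log2 values of -0.31 (SE 0.277, adjusted p = 0.479) and -0.33 (SE 0.259, adjusted p = 0.334) for KA against AAV control and PBS. The approximate 95% intervals ran from -0.85 to 0.23 and from -0.84 to 0.17.

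Sparc (chr11:55394500-55423183, - strand), the antagonist of hevin, was among the most abundant of the 10 genes throughout and rose in KA IP. Its FPKM was 425, 410 and 1092 in AAV control IP, 679, 792 and 667 in PBS IP and 2516, 2682 and 2846 in KA IP. All KA libraries were above all control libraries, and AAV control sample 3 was far above the other 2 of its group. The log2 fold change was 2.08 (SE 0.476, adjusted p = 0.0204) against AAV control and 1.91 (SE 0.405, adjusted p = 0.00486) against PBS. Against AAV control the call was lost without KA sample 1, 2 or 3, or without AAV control sample 1 or 2. In those fits Sparc had a log2 value of 1.81 to 2.17 and an adjusted p of 0.0543 to 0.0808. Of all genes, 8.59% to 13.1% passed there, in place of 20.1%. Without AAV control sample 3 the value was 2.81 (adjusted p = 0.00034), and 33.8% of genes passed. Within run 1, with samples 1 and 2 only, it was 2.70 (adjusted p = 2.2e-07), and 46% of genes passed.

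Sparcl1 (chr5:104079111-104113733, - strand), which encodes hevin, moved the other way. It had an FPKM of 1349, 1262 and 1413 in AAV control IP, 1319, 1630 and 1028 in PBS IP and 307, 396 and 325 in KA IP. The KA libraries lay below every control library by a wide gap. Its log2 fold change was -1.92 (SE 0.240, adjusted p = 0.00206) against AAV control and -1.98 (SE 0.363, adjusted p = 0.00242) against PBS, and it passed in all fits that left out a library, at -1.81 to -2.0 and -1.70 to -2.19.

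The ratio of Sparc to Sparcl1 within a library, which no scaling between libraries can change, inverted after KA. It was 0.315, 0.325 and 0.773 in AAV control IP, 0.514, 0.486 and 0.649 in PBS IP and 8.21, 6.77 and 8.76 in KA IP. In input it was 0.562, 0.470 and 0.977 in AAV control, 0.591, 0.670 and 0.650 in PBS and 2.50, 2.23 and 2.83 in KA. Sparcl1 was thus the more abundant per length in all 12 control libraries and Sparc in all 6 KA libraries.

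**Figure D3:**
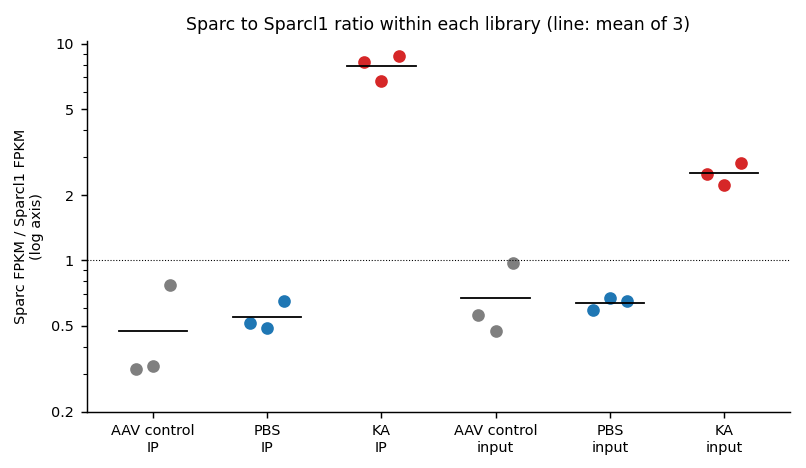
Ratio of Sparc FPKM to Sparcl1 FPKM within each library (log axis), with points for libraries, lines for means and a dotted line where both are equal. KA IP sits between 6.77 and 8.76 and KA input between 2.23 and 2.83, while all control libraries lie below 1.

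Gpc4 (chrX:52053021-52165252, - strand), a heparan sulfate proteoglycan released by astrocytes, rose in KA IP. Its FPKM was 4.39, 4.89 and 2.94 in AAV control IP, 2.80, 2.28 and 2.77 in PBS IP and 17, 15 and 14 in KA IP. The KA libraries were all above the control libraries, and PBS lay below AAV control. The log2 fold change was 1.98 (SE 0.192, adjusted p = 0.00075) against AAV control and 2.55 (SE 0.180, adjusted p = 9.5e-06) against PBS, and each passed without any 1 library, at 1.83 to 2.09 and 2.52 to 2.60.

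Gpc6 (chr14:116925315-117976544, + strand), the other glypican with this activity, did not follow Gpc4. Its FPKM was 2.38, 2.51 and 1.11 in AAV control IP, 1.71, 1.69 and 1.66 in PBS IP and 2.25, 1.97 and 1.42 in KA IP. The groups overlapped, and the log2 fold change in KA was -0.01 (SE 0.286, adjusted p = 0.978) against AAV control and 0.14 (SE 0.208, adjusted p = 0.616) against PBS. The approximate 95% intervals, -0.57 to 0.54 and -0.26 to 0.55, do not reach the size of the Gpc4 change.

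Mertk (chr2:128698956-128802894, + strand), a receptor tyrosine kinase that binds phosphatidylserine through the bridging ligands Gas6 and protein S, fell in KA IP. Its FPKM was 19.1, 15.9 and 6.53 in AAV control IP, 10.3, 8.88 and 10.4 in PBS IP and 4.00, 4.07 and 1.85 in KA IP. All KA libraries were below all control libraries, and within both KA and AAV control sample 3 was the lowest. The log2 fold change was -2.0 (SE 0.390, adjusted p = 0.0118) against AAV control and -1.59 (SE 0.241, adjusted p = 0.00088) against PBS. It passed without any 1 library, at -1.73 to -2.31 and -1.33 to -1.74. Within run 1, with samples 1 and 2 only, it was -2.05 (adjusted p = 1.41e-06), in a fit where 46% of genes passed.

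Megf10, a scavenger receptor with EGF-like repeats that binds C1q, did not pass the test. Its FPKM was 7.32, 6.98 and 3.31 in AAV control IP, 5.35, 4.61 and 4.42 in PBS IP and 5.74, 4.47 and 2.93 in KA IP. The groups overlapped, and sample 3 was again the lowest in AAV control and KA. The log2 fold change was -0.36 (SE 0.296, adjusted p = 0.436) against AAV control and -0.15 (SE 0.218, adjusted p = 0.611) against PBS. Within run 1 it was -0.42 and passed (adjusted p = 0.0269).

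The RefSeq table of promoters (GRCm38.p6) held 6 of the 10 genes, namely Thbs2, Thbs3, Thbs4, Sparc, Gpc4 and Mertk. The 250 bases before the start are given for Mertk, which fell in IP, for Thbs4, which differed between IP and input, and for Thbs2, the member with a motif match. They lie at chr2:128698665-128698914 (+ strand), chr13:92794819-92795068 (- strand) and chr17:14694263-14694512 (- strand), and none of their bases is in a GENCODE exon of the gene, whereas the windows of Sparc and Gpc4 overlap such exons and are not shown. Capitals mark a match to TATAAA on either strand, here read on the other strand.
Mertk: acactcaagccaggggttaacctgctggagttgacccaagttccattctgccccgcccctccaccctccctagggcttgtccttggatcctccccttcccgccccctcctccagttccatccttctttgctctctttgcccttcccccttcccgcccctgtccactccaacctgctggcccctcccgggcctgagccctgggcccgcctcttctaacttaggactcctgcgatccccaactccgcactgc
Thbs4: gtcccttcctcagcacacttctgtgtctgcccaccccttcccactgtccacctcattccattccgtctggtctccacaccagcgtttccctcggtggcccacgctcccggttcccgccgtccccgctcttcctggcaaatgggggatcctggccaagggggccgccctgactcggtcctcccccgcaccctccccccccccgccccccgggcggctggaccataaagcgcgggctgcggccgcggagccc
Thbs2: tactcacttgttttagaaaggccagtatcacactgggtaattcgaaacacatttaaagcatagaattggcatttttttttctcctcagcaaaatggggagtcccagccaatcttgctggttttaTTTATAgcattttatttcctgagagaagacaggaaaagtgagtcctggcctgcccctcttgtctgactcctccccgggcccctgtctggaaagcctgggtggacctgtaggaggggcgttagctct
The Mertk and Thbs4 windows had a GC content of 63.6% and 70.8% and that of Thbs2 46.8%, beside a median of 52.4% over 32851 promoters. The motifs searched on both strands of the 6 windows were AP-1 (TGANTCA, in 6.75% of all promoters), STAT (TTCNNNGAA, in 7.02%), the E-box CACGTG (in 6.02%) and TATAAA (in 12.4%). The match in Thbs2, which begins 126 bases before the start, was the 1 match found.

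In input, which holds RNA of the whole right hippocampus, the same comparisons asked whether the changes were seen in the tissue. Sparc was higher in KA against both control groups, and Gpc4, Thbs4 and Mertk were higher against PBS. Thbs1 was also called higher against both and Thbs2 against PBS, in fits that they entered through the KA libraries. Against AAV control the calls of Sparc and Thbs1 were lost in 5 and 4 of the 6 fits that left out a library. Of all genes, 1.23% to 3.05% passed in the 5 fits for Sparc, in place of 4.49%. In the 4 fits for Thbs1, 403 to 681 genes of the wider set were higher, in place of 910. No member was lower. In a bulk sample, fewer cells of a type and less RNA per cell cannot be told apart. Against AAV control, 1 of the 5 members with FPKM above 1 in all 6 libraries was higher, where 3.54% of 10809 genes were higher and 0.944% lower, and 5.78% of 15744 genes were higher in the wider set. Without AAV control sample 3, 13.1% of genes were higher and 10.7% lower, and within run 1, 20.7% and 20.9%, which stand behind the member values given below for these fits. A further fit put same-numbered KA and AAV control samples in a replicate block, although these are pools of different mice. They share a number and a run only, so the pairing is arbitrary within run 1. In that fit 6.76% of the 10809 genes were higher and 3.42% lower, and 3 of the 5 members were higher. Thbs3 at 0.82 (adjusted p = 0.0295) and Gpc4 at 0.67 (adjusted p = 0.0215) were added to Sparc. In the wider set Thbs4 at 1.25 passed as well (adjusted p = 0.0187), where 1331 of 15744 genes were higher. Against PBS, 4 of 7 members were higher, where 15.5% of 10849 genes were higher and 12.2% lower, and 16.4% of 15737 genes were higher in the wider set.

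Sparc had an FPKM of 90.4, 73.8 and 188 in AAV control input, 112, 140 and 128 in PBS input and 537, 481 and 500 in KA input. The KA inputs were above all control inputs, with a log2 fold change of 2.08 (SE 0.391, adjusted p = 0.0258) against AAV control and 1.99 (SE 0.143, adjusted p = 4.51e-06) against PBS. The call for Sparc against AAV control was lost without KA sample 1, 2 or 3 and without AAV control sample 1 or 2, with log2 values of 1.81 to 2.14 and adjusted p of 0.0693 to 0.121, and it was 2.69 (adjusted p = 3.35e-05) without AAV control sample 3. Sparcl1, in contrast to its fall in IP, had an FPKM of 161, 157 and 193 in AAV control input, 189, 208 and 197 in PBS input and 215, 216 and 177 in KA input. Its log2 value was 0.24 (SE 0.178, adjusted p = 0.555) against AAV control and 0.01 (SE 0.116, adjusted p = 0.943) against PBS, and the approximate 95% interval of the latter was -0.21 to 0.24. Without AAV control sample 3 Sparcl1 was higher by 0.41 (adjusted p = 0.0345), and within run 1 by 0.44 (adjusted p = 2.41e-05).

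Thbs1 had an FPKM of 0.268, 0.276 and 0.0524 in AAV control input, 0.131, 0.107 and 0.194 in PBS input and 1.07, 0.657 and 0.904 in KA input, so KA was above every control. The log2 fold change was 2.21 (SE 0.483, adjusted p = 0.0276) against AAV control and 2.57 (SE 0.346, adjusted p = 0.000185) against PBS, again in fits that the gene entered through the KA libraries. The former was lost without KA sample 1, 2 or 3 or AAV control sample 1, at an adjusted p of 0.0609 to 0.136. Thbs2 was at 0.250, 0.269 and 0.136 in AAV control, 0.213, 0.133 and 0.168 in PBS and 0.405, 0.345 and 0.462 in KA. Thbs2, like Thbs1, entered these fits through the KA libraries, with 2 control libraries at the count minimum. Its KA libraries were above all controls, but only the comparison with PBS passed (log2 1.20, SE 0.357, adjusted p = 0.0253, against 0.91, SE 0.353, adjusted p = 0.186 with AAV control), and Thbs2 lost that call without KA sample 1 or 3 or PBS sample 2 or 3 (adjusted p of 0.0513 to 0.118).

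Thbs4, which did not change in a way that passed the test in IP, was at 1.48, 0.955 and 2.18 in AAV control input, 1.36, 1.38 and 1.61 in PBS input and 4.19, 3.70 and 3.10 in KA input. All KA inputs were above all controls, and Thbs4 was higher by 1.32 on the log2 scale against PBS (SE 0.174, adjusted p = 0.000411) and by 1.19 without passing against AAV control (SE 0.319, adjusted p = 0.0607). The latter value was 1.65 without AAV control sample 3 (adjusted p = 0.00105). Within run 1, with samples 1 and 2 only, it was 1.72 (adjusted p = 6.69e-07). Thbs3 was at 1.14, 1.11 and 1.57 in AAV control, 1.57, 1.45 and 1.51 in PBS and 2.04, 1.72 and 3.03 in KA input, with log2 values of 0.83 (SE 0.312, adjusted p = 0.211) and 0.59 (SE 0.248, adjusted p = 0.101). Thbs3 passed against AAV control without its sample 3, at 1.08 (adjusted p = 0.0398), and against PBS without KA sample 2, at 0.78 (adjusted p = 0.0497).

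Gpc4 was at 7.23, 6.56 and 5.58 in AAV control input, 4.99, 4.66 and 5.56 in PBS input and 12.4, 10.8 and 7.88 in KA input. The KA inputs were above all controls, with log2 values of 0.68 (SE 0.169, adjusted p = 0.0663) against AAV control and 1.01 (SE 0.151, adjusted p = 0.000927) against PBS. Without AAV control sample 3, the former was 0.64 and passed (adjusted p = 0.0282). Gpc6 was between 0.604 and 1.16 in all 9 input libraries and did not pass (log2 0.04, SE 0.254, adjusted p = 0.949, and 0.40, SE 0.232, adjusted p = 0.227).

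Mertk, lower in KA IP, was not lower in KA input. Its FPKM was 5.23, 5.60 and 2.91 in AAV control, 3.42, 2.89 and 3.56 in PBS and 5.78, 6.49 and 4.46 in KA input. The KA libraries overlapped AAV control (log2 0.30, SE 0.225, adjusted p = 0.565) and were above PBS (log2 0.74, SE 0.147, adjusted p = 0.00451). Beside this, 6 of 6 microglial markers tested were higher in KA input against each control, and their part in the Mertk values was not tested. In IP the microglial sum was 16.5 to 23.3 in KA against 8.41 to 16.9 in the controls, and of 3 markers tested 1 was higher and 0 lower against AAV control and 1 higher and 1 lower against PBS. Megf10 was at 1.28, 1.38 and 0.968 in AAV control, 1.51, 1.51 and 1.30 in PBS and 1.91, 1.78 and 1.18 in KA input, which overlapped, and it did not pass (log2 0.41, SE 0.206, adjusted p = 0.320, and 0.15, SE 0.187, adjusted p = 0.589).

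PBS was set against AAV control to compare the groups without kainic acid. They differ in the second injection and in the sequencing run, and the PBS times are not given. The comparison therefore cannot isolate the injection. No member passed in IP or in input, where 0% of 10667 and 0% of 10924 genes passed with edgeR, although 1153 and 901 genes had an unadjusted p under 0.05. Over all genes limma-voom also called 0, and DESeq2 called 11 higher and 5 lower in IP and 12 higher and 18 lower in input, with 0 members among them. In IP the log2 values of the 8 members that passed the FPKM filter lay between -0.59 for Gpc4 and 0.17 for Thbs3, and in input those of the 5 that passed it lay between -0.43 for Mertk and 0.26 for Thbs3. In the wider set, Thbs2 was at -0.78 in IP (adjusted p = 0.541) and the other 5 members in input lay between -0.35 for Thbs1 and 0.31 for Megf10. Gpc4 was the member whose PBS and AAV control libraries did not overlap in IP, at 2.28 to 2.80 against 2.94 to 4.89, and likewise in input. The counts of 0 rest on AAV control sample 3: without it, 4.89% of 10951 genes were higher and 5.35% lower in IP, and 18.3% of 11164 higher and 18.2% lower in input. In those fits Mertk was lower in PBS in IP (log2 -0.74, adjusted p = 0.0314) and in input (-0.64, adjusted p = 0.00285), and Sparc (0.71, adjusted p = 0.00032) and Sparcl1 (0.40, adjusted p = 0.00816) were higher in PBS input.

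The IP to input ratio asks how far the RNA of a gene was concentrated in the IP libraries of each group. A ratio above 1 in KA was not particular to astrocyte RNA. The oligodendrocyte marker sum had mean ratios of 0.637, 0.658 and 2.2 in AAV control, PBS and KA, and 6 of 6 of these markers were higher in IP in KA. The neuronal sum was at 0.123, 0.153 and 0.359 and the microglial sum at 0.257, 0.331 and 0.0865. Their part in the member ratios was not tested. In AAV control, Sparcl1 had the highest ratio at 8.39, 8.04 and 7.33, followed by Thbs4 at 7.38, 6.92 and 3.71, Sparc at 4.70, 5.55 and 5.80, Thbs3 at 3.88, 4.78 and 5.92 and Megf10 at 5.71, 5.04 and 3.42. Mertk was at 3.65, 2.84 and 2.24 and Gpc6 at 2.18, 2.17 and 1.72, and Gpc4, at 0.608, 0.746 and 0.528, was the lower in IP in all 3 homogenates. The PBS ratios lay in a similar order, with Sparcl1 at 6.97, 7.82 and 5.21, Sparc at 6.07, 5.67 and 5.20, Thbs4 at 4.72, 6.94 and 5.56, Mertk at 3.02, 3.07 and 2.92 and Gpc4 at 0.561, 0.489 and 0.497. After KA, Sparc was at 4.69, 5.58 and 5.69, close to its control ratios and now the highest by mean, whereas Sparcl1 was at 1.43, 1.84 and 1.84, Thbs4 at 1.94, 1.26 and 2.26, Mertk at 0.692, 0.628 and 0.416 and Gpc4 at 1.37, 1.39 and 1.77. Sparcl1, Thbs4 and Mertk in KA were below all 6 control homogenates and Gpc4 was above them. Megf10, at 3.06 to 3.54 in PBS and 3.01, 2.51 and 2.48 in KA, was also below them, by a narrow gap. Thbs3 (4.01 to 5.56 in PBS and 3.13 to 4.06 in KA), Gpc6 (1.72 to 2.83 and 1.5 to 2.64) and Thbs2 (1.61 to 2.26 and 0.902 to 2.35) overlapped between groups. Thbs1, from few counts in the controls, was at 0.125 to 0.982 in the control groups and at 1.54, 2 and 2.36 in KA. How many of all genes have ratios that separate between KA and controls was not counted.

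**Figure D4:**
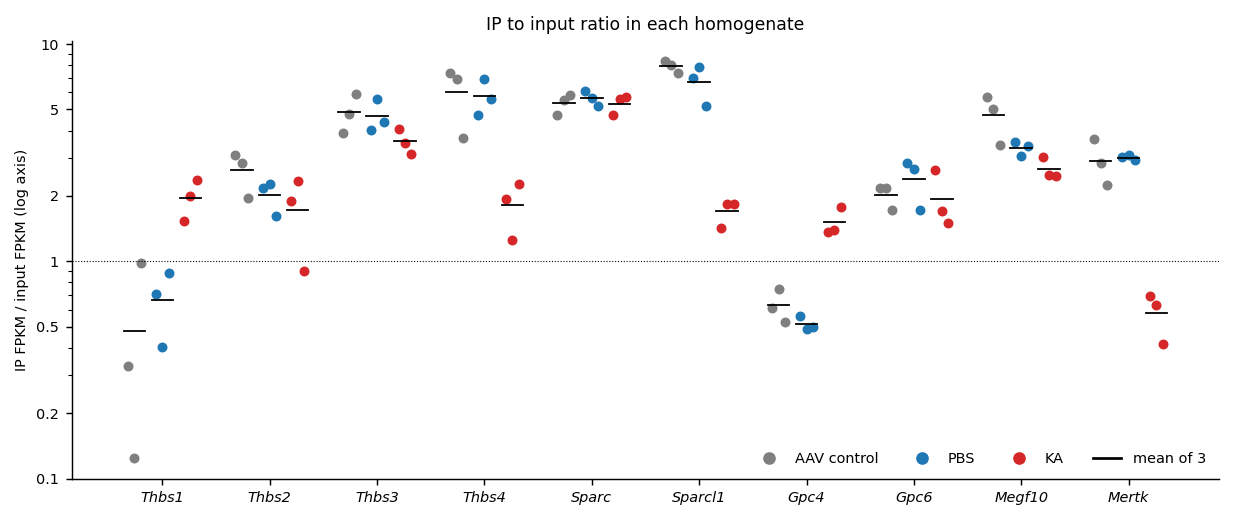
IP FPKM divided by input FPKM of the same homogenate (log axis) for each gene, with points for the 3 homogenates of each group, lines for means and a dotted line at a ratio of 1. Sparc keeps a ratio near 5 in all groups, Sparcl1 and Mertk drop after KA, and Gpc4 crosses from below to above 1.

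In AAV control, 4 of 5 members that passed the FPKM filter were higher in IP than in input and 0 lower, where 19.4% of 9961 genes were higher and 20.3% lower, and in the wider set 8 of 9 were higher, beside 18.5% of 15446 genes. The log2 values were 3.13 for Sparcl1, 2.62 for Sparc, 2.48 for Thbs3 and 1.73 for Mertk, and Gpc4, at -0.52, did not pass (adjusted p = 0.0765) but did with the homogenates paired in a replicate block (-0.53, adjusted p = 0.0162). With that block 30.9% of genes were lower in place of 20.3%, and the reported fits of IP against input used no block. Without AAV control sample 1, Sparc (2.67, adjusted p = 0.0679) and Mertk (1.52, adjusted p = 0.0849) lost their calls, and without AAV control sample 3 Gpc4 passed (-0.41, adjusted p = 0.0366). Of all genes, 16.1% and 62.7% passed in these 2 fits, in place of 39.7%. In the wider set Thbs2 and Gpc6 lost theirs without AAV control sample 1 or 2, at an adjusted p of up to 0.203 and 0.181. In PBS, 6 of 7 were higher and Gpc4 was lower (-0.82, SE 0.184, adjusted p = 0.00248), where 28.6% of 10401 genes were higher, 27.7% lower and, in the wider set, 27.2% of 16038 higher. In KA, 6 of 7 were higher and 0 lower, where 19.1% of 10098 genes were higher, 15.3% lower and, in the wider set, 17.9% of 15525 higher.

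Among the KA values, Sparc had a log2 IP to input difference of 2.63 (SE 0.234), Thbs3 2.03 (SE 0.296), Megf10 1.64 (SE 0.220), Thbs4 1.08 (SE 0.224), Sparcl1 0.98 (SE 0.164) and Gpc4 0.79 (SE 0.146), and all passed (adjusted p of 0.000137 to 0.00721). Thbs4 lost its call without KA sample 1 (adjusted p = 0.0761), and Sparcl1 and Gpc4 lost theirs without KA sample 2 (0.90, adjusted p = 0.0819, and 0.82, adjusted p = 0.0643). Of all genes, 13.2% and 13.3% then passed, in place of 34.4%. Mertk was at -0.55 (SE 0.239, adjusted p = 0.112), and at -0.58 with the homogenates paired, which passed (adjusted p = 0.00984), as did -0.39 without KA sample 3 (adjusted p = 0.0354). In these fits 25.3% and 22.7% of genes were lower, in place of 15.3%. With library totals in place of TMM factors the median log2 value of all genes moved to -0.15 in AAV control and -0.22 in KA, and Gpc4 in KA, at 0.55, then missed the threshold (adjusted p = 0.0517).

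Whether the KA change differed between IP and input was tested as an interaction in the 12 libraries of each pair of groups. The reported fits did not pair IP and input of a homogenate. The KA change of Sparcl1 and Mertk was lower in IP than in input and that of Gpc4 higher, with each control group as baseline. Thbs1 was also called higher, with the limits given below. With AAV control as baseline, 1 of 5 members that passed the FPKM filter had a higher and 2 a lower KA effect in IP, where 7.19% of 9180 genes were higher and 5.99% lower, and 4.9% of 16822 genes were higher in the wider set. With PBS as baseline, 1 of 7 was higher and 3 were lower, where 10.8% of 9305 genes were higher and 14.7% lower, and 10.3% of 17130 were higher in the wider set. In the same fits 6 of 8 astrocyte markers were lower and 0 higher with each baseline (medians -1.54 and -1.45). Of 6 neuronal markers 5 were higher with each (1.49 and 1.30), and of 6 oligodendrocyte markers 2 and 6 were higher (1.72 and 1.89). Of 3 reactive astrocyte markers tested, 0 and 1 were higher and 0 lower. The part of these shifts in the member values was not tested.

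For Sparcl1 the difference of the 2 KA effects was -2.15 (SE 0.276, adjusted p = 0.000647) with AAV control and -2.0 (SE 0.352, adjusted p = 0.00158) with PBS as baseline. For Mertk it was -2.28 (SE 0.490, adjusted p = 0.00958) and -2.34 (SE 0.296, adjusted p = 0.000198). The former lost its call without KA sample 2 (-2.34, adjusted p = 0.0506) or AAV control sample 1 (-2.09, adjusted p = 0.0513). Of all genes, 5.48% and 5.89% then passed, in place of 13.2%. For Gpc4 it was 1.31 (SE 0.242, adjusted p = 0.00416) and 1.53 (SE 0.215, adjusted p = 0.000402). Sparc, at 0.01 (SE 0.650, adjusted p = 0.998) and -0.09 (SE 0.351, adjusted p = 0.864), showed no such difference that passed, with approximate 95% intervals of -1.27 to 1.28 and -0.78 to 0.59.

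Thbs4 had a lower KA effect in IP than in input with PBS as baseline (-1.66, SE 0.330, adjusted p = 0.00318) and a value of -1.43 that did not pass with AAV control (SE 0.450, adjusted p = 0.0719). With IP and input of each homogenate paired in a replicate block, the AAV control values of Thbs4 (-1.48, adjusted p = 0.00116) and Megf10 (-0.66, adjusted p = 0.0310) passed, and Thbs4 also passed without AAV control sample 3 (-1.87, adjusted p = 0.0103). These are fits of the wider set, where 568 of 16822 genes were lower in the reported fit. With the block 1873 of 16822 were lower, and without AAV control sample 3, 1133 of 17103. For Thbs1 the difference was 2.77 (SE 0.722, adjusted p = 0.0320) and 1.72 (SE 0.563, adjusted p = 0.0406). The AAV control call for Thbs1 was lost in the 5 fits without KA sample 1, 2 or 3 or AAV control sample 1 or 2 (adjusted p of 0.0954 to 0.199). The PBS call was lost in all 6 fits that left out a sample (adjusted p of 0.0623 to 0.112). Over all genes, 305 to 509 were higher in the former 5 fits, in place of 825. In the latter 6 fits, 914 to 1650 were higher, in place of 1765. The Thbs1 calls were also lost with limma-voom (2.42, adjusted p = 0.125, and 1.73, adjusted p = 0.0902) and, with PBS, under library totals (1.45, adjusted p = 0.108), and Thbs1 entered these fits through its KA libraries. Thbs2, Thbs3 and Gpc6 did not pass with either baseline.

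Further genes of the same pathways were counted in IP from 5 lists that together hold 59 genes. Of these, 41 were tested against AAV control, with 13 higher and 3 lower, and 39 against PBS, with 12 higher and 6 lower, beside the shares of all genes given above. Among thrombospondin relatives and receptors, 1 of 6 tested was higher against AAV control, namely Cacna2d1, the gene of α2δ-1 (log2 1.08, SE 0.178, adjusted p = 0.00612). Against PBS Cacna2d1 did not pass (0.62, adjusted p = 0.0688), while Itgb1, an integrin subunit, was higher (0.96, SE 0.258, adjusted p = 0.0148) and the postsynaptic adhesion gene Nlgn1 lower (-0.73, SE 0.229, adjusted p = 0.0288), neither of which passed against AAV control (Itgb1 0.32, adjusted p = 0.510, and Nlgn1 -0.17, adjusted p = 0.701). The list medians were 0.12 in both comparisons, against -0.02 and -0.01 for all genes.

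In the SPARC family list, 3 of 7 tested were higher against AAV control and 1 of 6 higher and 1 lower against PBS, with list medians of 0.32 and 0.19. Spock3, a testican with a SPARC-like domain, went from 1.65 ± 0.117 FPKM in AAV control IP to 18.2 ± 2.31 in KA IP (SD, n = 3, log2 3.50, adjusted p = 7.46e-05). Spock3 was under the FPKM filter against PBS and not tested there. Spock1 was higher by 0.79 against AAV control (adjusted p = 0.0139) and at 0.39 against PBS without passing (adjusted p = 0.337), and Fstl1, another gene with a SPARC-like domain, by 1.14 against AAV control (adjusted p = 0.0180) and 1.39 against PBS (adjusted p = 0.000302). Nlgn1, also in this list as a partner of hevin, was the gene that was lower.

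In the glypican list, Gpc5, a further glypican, fell from 24.4 ± 3.31 in AAV control and 21.8 ± 3.18 in PBS to 7.04 ± 0.318 FPKM in KA IP (log2 -1.73, adjusted p = 0.000497, and -1.64, adjusted p = 0.000186). Nptxr, the neuronal pentraxin receptor, was higher by 1.75 (adjusted p = 0.00238) and 1.28 (adjusted p = 0.00414) and Gpc1 by 0.75 (adjusted p = 0.0300) and 0.59 (adjusted p = 0.0429), while Ptprd, a receptor phosphatase, was lower against PBS (-0.82, adjusted p = 0.0176) and did not pass against AAV control (-0.44, adjusted p = 0.15). Of 8 genes tested, 2 were higher and 1 lower against AAV control and 2 higher and 3 lower against PBS, with medians of 0.05 and 0.15. Neuronal markers moved with Nptxr in the same IP libraries, 3 and 4 of 6 being higher in KA, and their part was not tested.

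Of other secreted synapse regulators, Il33, a cytokine of the interleukin-1 family, rose by 1.94 (adjusted p = 0.0168) and 2.22 (adjusted p = 0.00029), the growth factor gene Ptn fell by 1.59 (adjusted p = 0.00856) and by 1.17 on the log2 scale (adjusted p = 0.0183), and Tgfb2 rose against PBS by 0.66 (adjusted p = 0.0119) but did not pass against AAV control (0.29, adjusted p = 0.462). This made 1 of 4 higher and 1 lower against AAV control and 2 of 3 higher and 1 lower against PBS, with medians of 0.28 and 0.66.

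In the list of phagocytic receptors, ligands and engulfment genes, 6 of 18 tested were higher and 1 lower in KA IP against each control, with medians of 0.26 and 0.11. Mfge8, a bridging ligand that opsonizes phosphatidylserine, fell from 145 ± 37.6 and 150 ± 41.4 to 16.3 ± 1.91 FPKM (log2 -3.11, adjusted p = 0.00067, and -3.23, adjusted p = 6.61e-05). Pros1, which encodes the Mertk ligand protein S, rose by 1.28 (adjusted p = 0.0125) and 1.66 (adjusted p = 0.000842), and the lipid transporter gene Abca1 by 1.14 (adjusted p = 0.00987) and 1.43 (adjusted p = 0.000683). C1qa, a complement gene of microglia, was at 14.6 ± 7.24 FPKM in KA IP against 3.53 ± 0.774 and 4.15 ± 0.930, while Aif1, the microglial marker highest in KA IP, was at 10 ± 1.49 against 3.22 ± 0.391 and 3.02 ± 0.933, and the part of microglial RNA in the C1qa value was not tested. In input, 8 of 19 genes of this list were higher and 0 lower against AAV control and 9 of 18 higher and 0 lower against PBS, with medians of 0.47 and 0.36, where 3.54% and 15.5% of all genes were higher. The list holds the microglial genes C1qa, C1qb and C1qc, and the microglial marker sum in input was 200 to 275 in KA against 34.5 to 58.6 in the controls. The part of microglial RNA in these counts was not tested.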

How the data were processed

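Right-hippocampus IP and input RNA was sequenced in 18 libraries, 3 per group and kind. Per the methods and the submitters' processing notes, the authors aligned reads to mm10 with STAR, and the notes also list featureCounts and edgeR, without versions. For every library the authors deposited raw counts and FPKM by gene symbol. The deposited FPKM is the count divided by library total and a fixed gene length for 17065 of 17097 genes within 0.1%. The library kit does not keep strand. Coordinates are from GENCODE on GRCm38.

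From the counts, edgeR 4.0.16 (R 4.3.3, limma 3.58.1, DESeq2 1.42.0 as an alternative) was run with TMM factors, the quasi-likelihood test and Benjamini-Hochberg adjustment over all genes whose FPKM exceeded 1 in all libraries of the comparison, and 0.05 as threshold. Members outside that filter were tested in the wider set of filterByExpr with a count minimum of 10. The fits were tested on simulated counts with the same dispersion for every gene, independent libraries and no run effect. That test therefore does not cover the run differences and the pairing of these libraries. Samples differ by batch as given above. Pools are the replicates, and p-values of comparisons within IP or within input measure the spread between pools. The reported fits of IP against input and of the interaction treated both libraries of a homogenate as independent. Their p-values therefore do not measure the spread of the difference within pools, and the paired fits were alternatives.

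Deviations from group means correlated between IP and input of the same homogenate (0.155 to 0.752 over 9001 genes) and between same-numbered KA and AAV control libraries (0.349 to 0.552), so these pairs were also fitted with a replicate block. Same-numbered KA and AAV control samples are pools of different mice that share the run, so that block is not a true pairing. No pair of libraries of a group was alike within counting noise. A count of 0 allows an expected count of up to 3.

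The 10 members, the related gene lists and the marker lists were chosen with earlier results of these data known. All members are named, and from each related list up to 4 genes with the smallest p among those that passed in KA against AAV control IP, and likewise in KA against PBS IP. Aif1 was named after its values were seen. Proteins and the promoters of Thbs1, Sparcl1, Gpc6 and Megf10 were not used here. DESeq2, limma-voom, other scalings and filters, all 9 libraries in 1 fit, the run as covariate, run 1 alone and fits without 1 sample were the alternatives.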

Additional observations from a re-analysis of the deposited data

Results flagged for a closer look

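The results below were picked because the change after KA differed between IP and input of the same samples, by the interaction term of the edgeR fit at an adjusted p under 0.05. That fit did not pair IP and input of a homogenate. A negative value means that the log2 change in IP was below that in input. For Sparcl1 the difference was -2.15 with AAV control and -2.0 with PBS as baseline. For Mertk it was -2.28 and -2.34, and Mertk was the member with a fall in IP and a rise against PBS in input. For Gpc4 it was 1.31 and 1.53. For Thbs1 it was 2.77 and 1.72, from a gene that entered the fits through its KA libraries. For Thbs4 it was -1.66 with PBS as baseline. Both baselines share the KA libraries. Of 8 astrocyte markers, 6 also had a lower and 0 a higher KA change in IP than in input with each baseline. The part of that shift in the member values was not tested. The test for a single outlying value per gene was not run, since it needs groups of at least 4 samples.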

How the results depend on the processing

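The count of members that passed in KA against AAV control input, 1 in the reported fit, was 2 with DESeq2, with filterByExpr and with all 9 libraries in 1 fit, 3 with the replicate block and with the run as covariate, 4 with no filter, 5 within run 1, and 0 to 4 without 1 library. The share of all genes called moved too, from 4.49% in the reported fit to 8.12%, 7.2%, 8.77%, 10.2%, 16%, 5.65% and 41.6% in the order of these settings, and to 1.23% to 23.8% without 1 library, and the member counts are to be read against these shares. For KA against PBS input the member count was 7 in place of 4 with no filter. Of all genes, 15.8% were then called in place of 27.7%. For IP against input in AAV control the member count was 8 in place of 4 with filterByExpr and with no filter, and 2 to 7 without 1 sample. Of all genes, 39.7% were called in the reported fit, 37% and 20.1% with these filters and 16.1% to 62.7% without 1 sample. For the interaction with AAV control as baseline the member count was 5 in place of 3 with no filter. Of all genes, 5.16% were then called in place of 13.2%. The wider filters test more members. PBS against AAV control gave 0 to 1 in IP and 0 to 3 in input without 1 library, the highest without AAV control sample 3, where 10.2% and 36.5% of all genes were called. Over all comparisons and alternatives, 123 counts of members stayed within 1.5 times and 21 did not. Same-numbered KA and PBS IP libraries did not deviate together (correlations of -0.294 to 0.106), and the replicate block left 4 members passing in IP and 4 in input. With that block 31.3% and 28.4% of all genes were called. The block changed no other member's call than those given above.

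Signs turned in values near 0 that did not pass, and the cause was not tested. Gpc6 in KA against AAV control IP was 0.05 with limma-voom, 0.02 with the replicate block and with the run as covariate, 0.04 with filterByExpr and 0.06 with no filter, and in input -0.16 within run 1. Megf10 in KA against PBS IP was 0.03 with no filter, and Sparcl1 in KA against PBS input was -0.01 with filterByExpr and with no filter. For the interaction with AAV control, Sparc was -0.06 and Gpc6 -0.12 with library totals, and Gpc6 was -0.004 with DESeq2 and -0.003 with RLE factors. With PBS as baseline Sparc was 0.11 with filterByExpr and 0.16 with no filter. Without 1 library, KA against AAV control ranged from -0.05 to 0.51 for Thbs2 and -0.28 to 0.15 for Gpc6 in IP and from -0.13 to 0.16 for Gpc6 in input. KA against PBS ranged from -0.02 to 0.40 for Thbs3 and -0.34 to 0.04 for Megf10 in IP and from -0.04 to 0.06 for Sparcl1 in input. PBS against AAV control input ranged from -0.15 to 0.71 for Sparc, which passed without AAV control sample 3. The interaction ranged from -0.08 to 0.16 for Sparc and -0.27 to 0.14 for Gpc6 with AAV control, and from -0.37 to 0.28 for Thbs2, -0.16 to 0.05 for Sparc and -0.38 to 0.14 for Gpc6 with PBS.

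Scaling by TMM factors in place of library totals would raise the IP to input ratios by 1.04 to 1.27 times. Counts of Thbs1 in control libraries, 2 to 16, limit its fold changes.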

Other observations

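The summed FPKM of Thbs1, Thbs2, Thbs3 and Thbs4 was 16.2, 12.7 and 17.7 in AAV control IP, 13.3, 18 and 16 in PBS IP, and 18.8, 12.8 and 19 in KA IP. The sums overlapped, although Thbs1 by itself was higher in all KA libraries. In input the sum was 3.15, 2.61 and 3.93 in AAV control, 3.27, 3.07 and 3.49 in PBS and 7.71, 6.42 and 7.5 in KA, where all KA libraries were above all controls. These sums were compared after their parts were seen and carry no test.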
